A study of Mus musculus with 10 samples.

Results

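The levels of 10 alpha- and beta-tubulin genes (Tuba1a, Tuba1b, Tuba1c, Tuba4a, Tubb2a, Tubb2b, Tubb3, Tubb4b, Tubb5 and Tubb6) were examined among 33393 genes in RNA-seq of mouse CD34- hematopoietic stem cells (HSCs). The 10 genes were chosen by symbol, and they were selected on their known difference between genotypes in these libraries. That difference is given here as a description, and calls of a fit on it are not read as support. Bone marrow of 8-week-old C57BL/6 mice was sorted for Lin- Sca-1+ cKit+ CD34- Flt3- cells. Libraries labelled Reg1Δ/Δ came from Vav1-iCre; Reg1flox/flox mice, in which the Vav1 promoter drives Cre in blood cells in general and removes Regnase-1 (gene Zc3h12a), an RNase that degrades inflammatory mRNAs. Controls were Reg1flox/flox mice without Cre, so the floxed alleles were shared by all libraries. By the form of their names the libraries fell into set A (3 controls, 3 Reg1Δ/Δ) and set B (2 controls, 2 Reg1Δ/Δ), and every comparison below was made within sets.

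Alpha- and beta-tubulin proteins join into dimers, and the dimers assemble into microtubules, the hollow filaments of the mitotic spindle, of intracellular transport and of cell shape. Mammals carry several genes (isotypes) for each, which encode closely similar proteins that differ mostly in the acidic tail at the C terminus, where many tubulin-modifying enzymes act. Tubb5 is the general beta isotype of dividing cells, Tubb4b is found in most tissues including ciliated ones, Tubb2a, Tubb2b and Tubb3 are best known from neurons, and Tubb6 from muscle and other differentiated cells. Tuba1b and Tuba1c are widely expressed alpha isotypes, Tuba1a is the main alpha isotype of developing neurons, and Tuba4a is abundant in platelets and brain.

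Several facts about the libraries bear on all values. Levels are in TPM, a length-corrected share of all transcripts that sums to 1000000 in every library, so the depth is unknown and no counting error can be given. The whole-gene level of the targeted gene was higher in the libraries labelled Reg1Δ/Δ, against the label. Zc3h12a was 1.83, 1.28 and 1.60 TPM in the set A controls and 3.54, 2.08 and 2.51 TPM in the set A libraries labelled Reg1Δ/Δ. In set B it was 1.48 and 6.07 TPM in the controls and 10.3 and 8.52 TPM in the libraries labelled Reg1Δ/Δ (log2 difference 0.83, SE 0.28, adjusted p = 0.0314 by limma). These values cover the whole gene, and the floxed part is not given in the sources used here, so they do not check the deletion. The study examined the deletion in CD34- HSCs by a separate qRT-PCR, which is not repeated here. Every direction below is a direction by label. Of 10 stem cell markers, 8 were lower and 0 higher in the libraries labelled Reg1Δ/Δ, beside 37.9% and 15.0% of all genes tested (Kit, 252 against 89.8 TPM on average), and mRNA of Cd34 and Flt3, whose proteins the sort excludes, averaged 142 and 19.4 TPM in the controls. Markers of neutrophils, B cells, T cells and megakaryocytes were present in the controls and mostly lower in Reg1Δ/Δ (6 of 8, 7 of 7, 3 of 3 and 5 of 5 tested, beside the same 37.9%), as were 5 of 8 erythroid markers (2 were higher). A marker that reaches 1 TPM in the 5 controls alone also enters the fit, and it can then only be lower. These counts are therefore a description. Their most abundant genes averaged 2729 and 56.6 TPM (S100a9), 424 and 41.2 TPM (Ighm), 144 and 6.16 TPM (Trbc1), 162 and 38.8 TPM (Pf4) and 1503 and 162 TPM (Hbb-bs) in controls and Reg1Δ/Δ. In bulk RNA, fewer cells of a type and less RNA per cell cannot be told apart. Transcripts annotated as protein-coding held 46.2% to 49.1% of TPM in set A and 73.5% to 81.1% in set B, and the labels and the study's methods name different versions of the cDNA kit without tying either to a set.

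The tubulin message of these cells was dominated by a few isotypes, and the widest differences between genotypes lay in minor ones (Tubb3, Tubb6 and Tuba1a), with smaller ones in the abundant Tubb4b, Tuba4a and Tuba1b. On the TPM scale the order of mean levels in the set A controls was Tuba1b (872), Tuba4a (406), Tubb4b (310), Tubb5 (158), Tuba1c (63.5), Tuba1a (30.1), Tubb2a (11.0), Tubb6 (5.86), Tubb2b (0.724) and Tubb3 (0.547). The ranges of Tuba4a and Tubb4b overlapped in this order, as did those of Tubb2b and Tubb3. The order in the set B controls differed and began with Tuba1b (1873), Tubb5 (826), Tubb4b (583) and Tuba4a (337). In the set A libraries labelled Reg1Δ/Δ, Tubb3 stood in place 7 with a mean of 16.4 TPM, above Tuba1a, and Tubb6 and Tubb2b were last. Every Reg1Δ/Δ library was above every control of its set for 5 of the 10 genes (Tubb3, Tubb2a, Tubb4b, Tuba4a and Tuba1b) and below for 3 (Tuba1a, Tubb6 and Tubb2b). Of all 12874 genes that passed the filter (at least 1 TPM in at least 5 of 10 libraries), 12.7% were separated upward and 31.4% downward in this way, and of the 9 tubulins among them 5 and 2 (Tubb2b did not pass). Tuba1c and Tubb5 overlapped between the genotypes in at least part of the data.

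**Figure D1:**
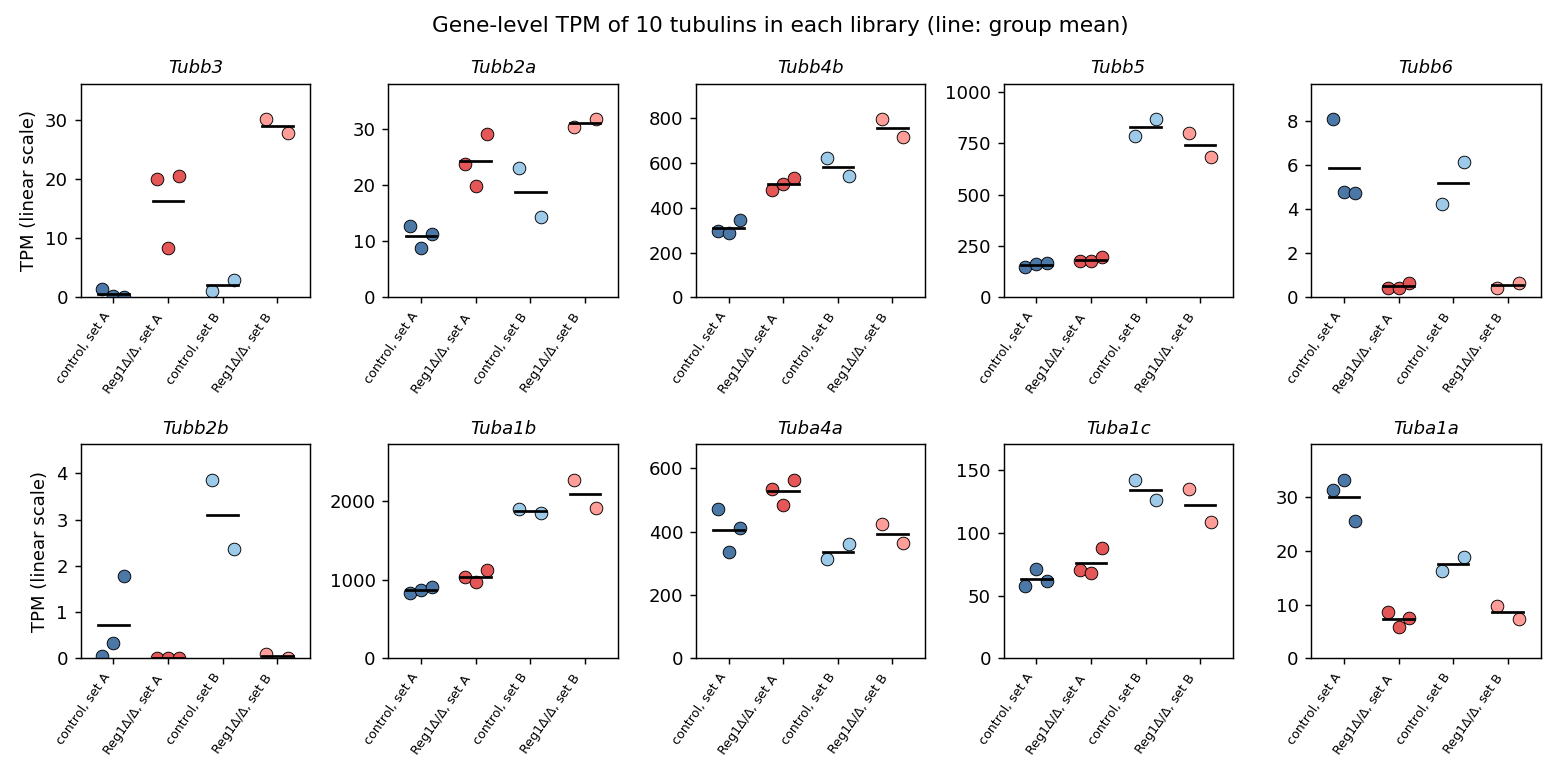
TPM (linear vertical axes, each from 0) of the 10 tubulin genes in each library, by genotype and library set, with the group mean as a line. Tubb3 is at most 3.01 TPM in controls and at least 8.36 TPM in Reg1Δ/Δ, Tubb6 and Tuba1a lie lower in Reg1Δ/Δ in both sets, and Tubb5 differs between the sets.

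Tubulin messages share long stretches, which limits how surely reads can be assigned to a gene. Between coding sequences, identity was 98.3% for Tuba1a and Tuba1b, 97.1% for Tuba1a and Tuba1c and 96.5% for Tubb2a and Tubb2b (global alignment, GENCODE M21). It lay between 80.2% and 86.0% for all other pairs of beta isotypes. Of the overlapping 31-base words of the main coding transcript, 96.7% were found in no other gene for Tubb3, 96.1% for Tubb6 and 95.5% for Tubb5. For Tubb2b the share was 54.1%, for Tuba4a 48.2%, for Tubb2a 43.6%, for Tuba1c 36.1%, for Tubb4b 29.6%, for Tuba1a 21.4% and for Tuba1b 13.9%. For Tuba4a most of the shared words lay in Stk16, a gene on the other strand that overlaps its end, and for Tubb4b in a pseudogene. For Tuba1b, 66.8% of the words also lay in AC157548.1, an annotated gene outside the 10. The split of reads among Tuba1a, Tuba1b and Tuba1c, and between Tubb2a and Tubb2b, is thus uncertain, and sums over them are given as well. The sum over the Tuba1 genes does not cover reads that Tuba1b shares with the outside gene.

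The isotypes are told apart by the ends of their coding sequences, which are shown for 7 genes because the acidic tail lies there. Each line gives the last 60 coding bases in GENCODE M21 (GRCm38), 5′ to 3′, with the stop codon in capitals.
Tubb3: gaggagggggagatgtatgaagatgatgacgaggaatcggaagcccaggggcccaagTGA
Tubb2a: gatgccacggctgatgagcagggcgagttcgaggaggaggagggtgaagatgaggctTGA
Tubb2b: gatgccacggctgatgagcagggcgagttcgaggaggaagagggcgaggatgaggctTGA
Tubb4b: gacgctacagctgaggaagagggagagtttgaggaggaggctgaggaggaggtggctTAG
Tubb5: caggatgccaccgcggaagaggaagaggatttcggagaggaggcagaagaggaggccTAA
Tuba1c: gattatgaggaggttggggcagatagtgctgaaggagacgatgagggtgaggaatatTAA
Tuba4a: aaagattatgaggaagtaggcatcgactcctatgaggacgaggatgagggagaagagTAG
Of the 19 codons before the stop, 10 or 11 encoded an acidic residue (glutamate or aspartate) in each of these 7 genes. Tubb2a and Tubb2b differed at 3 of these 60 bases, whereas Tubb3 differed at 33 to 36 from Tubb2a, Tubb2b, Tubb4b and Tubb5, counted from the end. The start of the coding sequence, where tubulin mRNA autoregulation reads the first 4 codons of the nascent chain, was atgcgtgagtgc in Tuba1a, Tuba1b and Tuba1c. Tuba4a began with atgcgcgagtgc, and Tubb3 and Tubb4b with atgagggagatc.

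Tubb3 showed the widest difference between genotypes. Tubb3 (ENSMUSG00000062380; GRCm38 chromosome 8, 123411424 to 123422015, plus strand) has 4 exons and 1353 coding bases. Its level was 1.41, 0.190 and 0.0431 TPM in the set A controls and 20.1, 8.36 and 20.6 TPM in the set A libraries labelled Reg1Δ/Δ. The set B levels were 1.06 and 3.01 TPM in the controls and 30.2 and 27.8 TPM in Reg1Δ/Δ. The groups did not overlap, and the second Reg1Δ/Δ library of set A lay below the other two. The difference in log2(TPM + 1) was 3.45 (SE 0.32, 5 against 5 libraries). It was 3.49 (SE 0.43) in set A and 3.38 (SE 0.53) in set B. Tubb3 reached 1 TPM in 8 libraries, among them all 5 labelled Reg1Δ/Δ, so it passed the filter through the group in which it was high.

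Of the 8 measured genes of a neuronal marker list without tubulins, none reached 1 TPM in a library labelled Reg1Δ/Δ. Elavl4 carried most of their sum in the set A controls. Of 10 neuronal markers, 8 were in the tables, and 6 of them stayed under 1 TPM in every library. Their summed level was 0.355 to 0.456 TPM in the set A libraries labelled Reg1Δ/Δ, where Tubb3 alone reached 20.6, and 5.01 to 7.90 TPM in the set A controls. In set B the sum was 0.633 to 0.665 TPM in Reg1Δ/Δ and 3.28 to 3.72 TPM in the controls. The RNA-binding gene Elavl4 was the only neuronal marker that passed the filter, and it reached 1 TPM in the 5 controls only, so it passed through the group in which it was high. It averaged 4.12 TPM in the controls and 0.104 TPM in Reg1Δ/Δ. Snap25, a synaptic vesicle fusion gene, was listed at 0 in 4 of the 5 Reg1Δ/Δ libraries.

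Tubb2a was higher in every library labelled Reg1Δ/Δ, and its near-copy Tubb2b was not. Tubb2a (ENSMUSG00000058672; chromosome 13, 34074274 to 34078007, minus strand) had 12.7, 8.88 and 11.4 TPM in the set A controls and 23.9, 19.9 and 29.2 TPM in Reg1Δ/Δ. The set B levels were 23.2 and 14.4 TPM in the controls and 30.4 and 31.8 TPM in Reg1Δ/Δ, a log2 difference over both sets of 0.94 (SE 0.17). Tubb2b (ENSMUSG00000045136; chromosome 13, 34126748 to 34130466, minus strand) was low everywhere, at 0.0462, 0.340 and 1.79 TPM in the set A controls and 3.86 and 2.36 TPM in the set B controls. In Reg1Δ/Δ it was listed at 0 in 3 libraries and at 0.0124 and 0.0866 TPM in the others. It reached 1 TPM in 3 libraries and so did not enter the fit. The sum of Tubb2a and Tubb2b was 9.22 to 13.2 TPM in the set A controls and 19.9 to 29.2 TPM in Reg1Δ/Δ. In set B the sum was 16.8 and 27.0 TPM in the controls and 30.5 and 31.8 TPM in Reg1Δ/Δ.

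Tubb4b was the abundant beta isotype that differed most. Tubb4b (ENSMUSG00000036752; chromosome 2, 25222160 to 25224702, minus strand) had 297, 288 and 344 TPM in the set A controls and 480, 506 and 534 TPM in Reg1Δ/Δ. Set B held 623 and 543 TPM in the controls and 796 and 716 TPM in Reg1Δ/Δ. The log2 difference was 0.58 (SE 0.11), 0.71 (SE 0.13) in set A and 0.38 (SE 0.16) in set B.

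Tubb5, the other abundant beta isotype, showed no common direction. Tubb5 (ENSMUSG00000001525; chromosome 17, 35833921 to 35838306, minus strand) had 147, 161 and 166 TPM in the set A controls and 177, 180 and 196 TPM in Reg1Δ/Δ. Set B held 787 and 866 TPM in the controls and 797 and 684 TPM in Reg1Δ/Δ, so the genotypes were apart in set A and overlapped in set B. The log2 difference was 0.07 (SE 0.11), with 0.22 in set A and −0.16 in set B.

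Tubb6 was low in the controls and under 1 TPM in every library labelled Reg1Δ/Δ. Tubb6 (ENSMUSG00000001473) had 8.09, 4.77 and 4.73 TPM in the set A controls and 0.449, 0.419 and 0.639 TPM in Reg1Δ/Δ. The set B levels were 4.23 and 6.17 TPM in the controls and 0.418 and 0.677 TPM in Reg1Δ/Δ. The log2 difference was −2.09 (SE 0.16), and it was −2.16 in set A and −1.99 in set B. Tubb6 reached 1 TPM in the 5 controls only, so it passed the filter through the group in which it was high.

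Among the alpha isotypes Tuba1a was lower in Reg1Δ/Δ while the abundant Tuba1b and Tuba4a were slightly higher. Tuba1a (ENSMUSG00000072235; chromosome 15, 98949837 to 98953703, minus strand) had 31.3, 33.2 and 25.6 TPM in the set A controls and 8.71, 5.80 and 7.44 TPM in Reg1Δ/Δ. In set B it had 16.2 and 18.8 TPM in the controls and 9.80 and 7.33 TPM in Reg1Δ/Δ. The groups did not overlap, with a log2 difference of −1.53 (SE 0.20) that was −1.91 (SE 0.18) in set A and −0.96 (SE 0.22) in set B.

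Tuba1b (ENSMUSG00000023004; chromosome 15, 98931425 to 98934565, minus strand) was the most abundant tubulin in all 10 libraries. It had 833, 867 and 915 TPM in the set A controls and 1031, 972 and 1121 TPM in Reg1Δ/Δ. The levels in set B were 1898 and 1848 TPM in the controls and 2274 and 1921 TPM in Reg1Δ/Δ, a log2 difference of 0.22 (SE 0.09). Tuba1c (ENSMUSG00000043091; chromosome 15, 99029891 to 99038110, plus strand) had 57.5 to 71.4 TPM in the set A controls and 68.4 to 88.3 TPM in Reg1Δ/Δ. In set B the values were 127 and 142 TPM in the controls and 109 and 136 TPM in Reg1Δ/Δ, so its groups overlapped in both sets. The sum of Tuba1a, Tuba1b and Tuba1c was 922 to 1002 TPM in the set A controls and 1046 to 1217 TPM in Reg1Δ/Δ, and in set B 1993 and 2057 TPM against 2037 and 2419 TPM.

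Tuba4a (ENSMUSG00000026202; chromosome 1, 75214228 to 75219865, minus strand) had 471, 335 and 411 TPM in the set A controls and 536, 483 and 563 TPM in Reg1Δ/Δ. The levels in set B were 313 and 361 TPM in the controls and 423 and 363 TPM in Reg1Δ/Δ. The groups did not overlap, but in set B the lower Reg1Δ/Δ library lay next to the higher control, and the log2 difference over both sets was 0.32 (SE 0.12). Most of this signal lay in transcript models without the full coding sequence, described below.

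In the fit across all 12874 genes, 9 of the 10 tubulins were tested, and 4 were called higher (Tubb3, Tubb2a, Tubb4b and Tuba4a) and 2 lower (Tuba1a and Tubb6) at an adjusted p under 0.05. Over all genes tested, 15.0% were called higher and 37.9% lower. The genes were chosen with this contrast known, so nothing is read from these counts. Tuba4a was the marginal call. It was lost with quantile normalization, with protein-coding transcripts alone, without the filter, with a pseudocount of 0.1 and without the set covariate. It was also lost with the replicate block, in each set alone and in 7 of the 10 fits that left out a library. The other 5 calls were kept in all 10 of those, which is no support, since the genes were chosen on this contrast. Without the set covariate the call of Tubb4b was lost too, and without the filter Tuba1b was called higher and Tubb2b lower. With at least 1 TPM asked of every library, Tubb3 and Tubb6 left the fit. The calls were then Tuba4a, Tubb2a and Tubb4b higher and Tuba1a lower. With median-of-ratios scaling 7 of the 9 were called higher, beside 30.9% of all genes, since Tuba1b, Tuba1c and Tubb5 were then called as well. In set B alone Tubb3 and Tubb6 were the only calls. The median log2 difference of all genes was −0.25, and 7 of the 9 tubulins had a difference above 0. This median moves with the scaling, to 0.14 with quantile normalization and 0.05 with median-of-ratios scaling. Relative to the median, Tubb3, Tubb2a, Tubb4b and Tuba4a were above it and Tuba1a and Tubb6 below it under each of these scalings (Tuba4a by 0.04 after quantile normalization), whereas Tuba1b, Tuba1c and Tubb5 were above it on the TPM scale and below it after quantile normalization (by 0.00, 0.04 and 0.11).

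**Figure D2:**
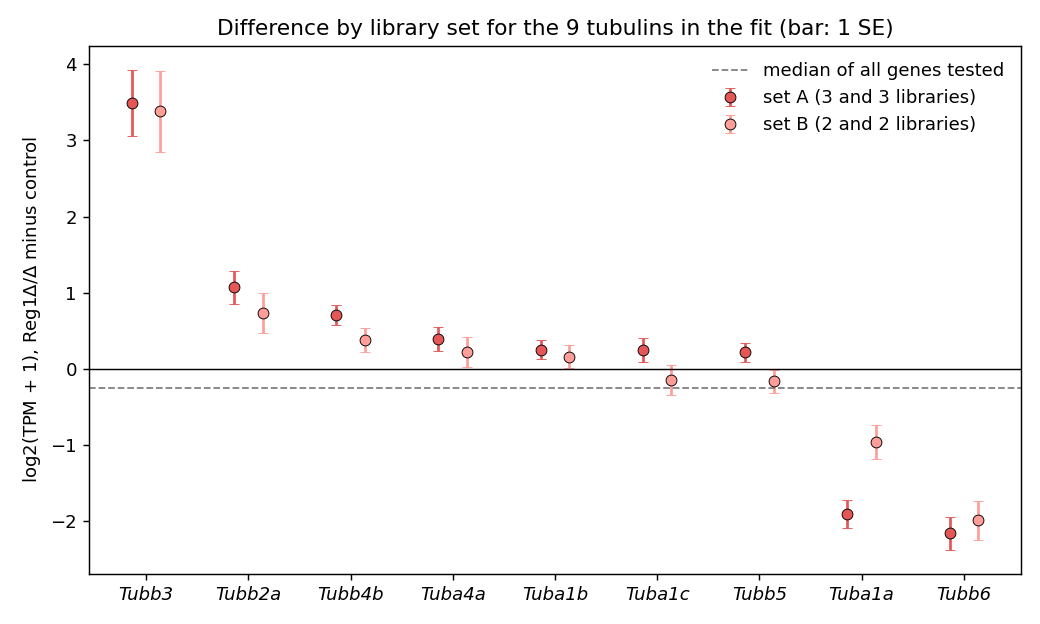
Difference in log2(TPM + 1) between libraries labelled Reg1Δ/Δ and controls (vertical axis) for the 9 tubulins in the fit, with set A and set B as separate points and bars of 1 SE. The dashed line is the median of all genes tested (−0.25), and the sets lie on opposite sides of 0 for Tuba1c and Tubb5.

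The difference between genotypes was then compared between the library sets, a measure that did not choose the genes. None of the 9 tubulins passed the interaction test at an adjusted p under 0.05 (limma), of 57 genes or 0.443% of all genes tested, and 1603 genes had an unadjusted p under 0.05. The smallest unadjusted p was that of Tuba1a (0.0101, adjusted p = 0.244), whose log2 difference was less negative in set B by 0.95. For Tubb3 the sets differed by −0.11 (adjusted p = 0.968).

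Summed over the 10 genes, tubulin message was 1859, 1770 and 1941 TPM in the set A controls and 2348, 2243 and 2560 TPM in Reg1Δ/Δ. In set B the sum was 3812 and 3789 TPM in the controls and 4496 and 3861 TPM in Reg1Δ/Δ. All Reg1Δ/Δ libraries lay above the controls of their set, with a log2 difference of 0.27. The sum was 0.177% to 0.194% of all TPM in the set A controls and 0.224% to 0.256% in Reg1Δ/Δ. The ratio of alpha to beta message was 2.68 to 2.99 in the set A controls and 2.14 to 2.35 in Reg1Δ/Δ, and it was 1.64 to 1.72 in all 4 libraries of set B.

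The make-up of the beta isotypes differed between genotypes, with more Tubb4b and Tubb3 and less Tubb5 in Reg1Δ/Δ. Tubb4b made up 62.2% to 65.1% of beta-tubulin TPM in the set A controls and 68.4% to 70.8% in Reg1Δ/Δ, and in set B 37.8% and 43.2% against 48.1% and 49.0%. Tubb5 made up 31.5% to 34.7% in the set A controls and 25.1% to 25.3% in Reg1Δ/Δ, and in set B 54.6% and 60.4% against 46.8% and 48.2%. The share of Tubb5 was therefore lower in every Reg1Δ/Δ library than in the controls of its set, although its level was not. Tubb3 was 0.00816% to 0.302% of beta tubulin in the controls and 1.17% to 2.87% in Reg1Δ/Δ. Among the alpha isotypes, Tuba1a was 1.82% to 2.54% in the set A controls and 0.379% to 0.529% in Reg1Δ/Δ, and in set B 0.684% and 0.798% against 0.305% and 0.345%.

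**Figure D3:**
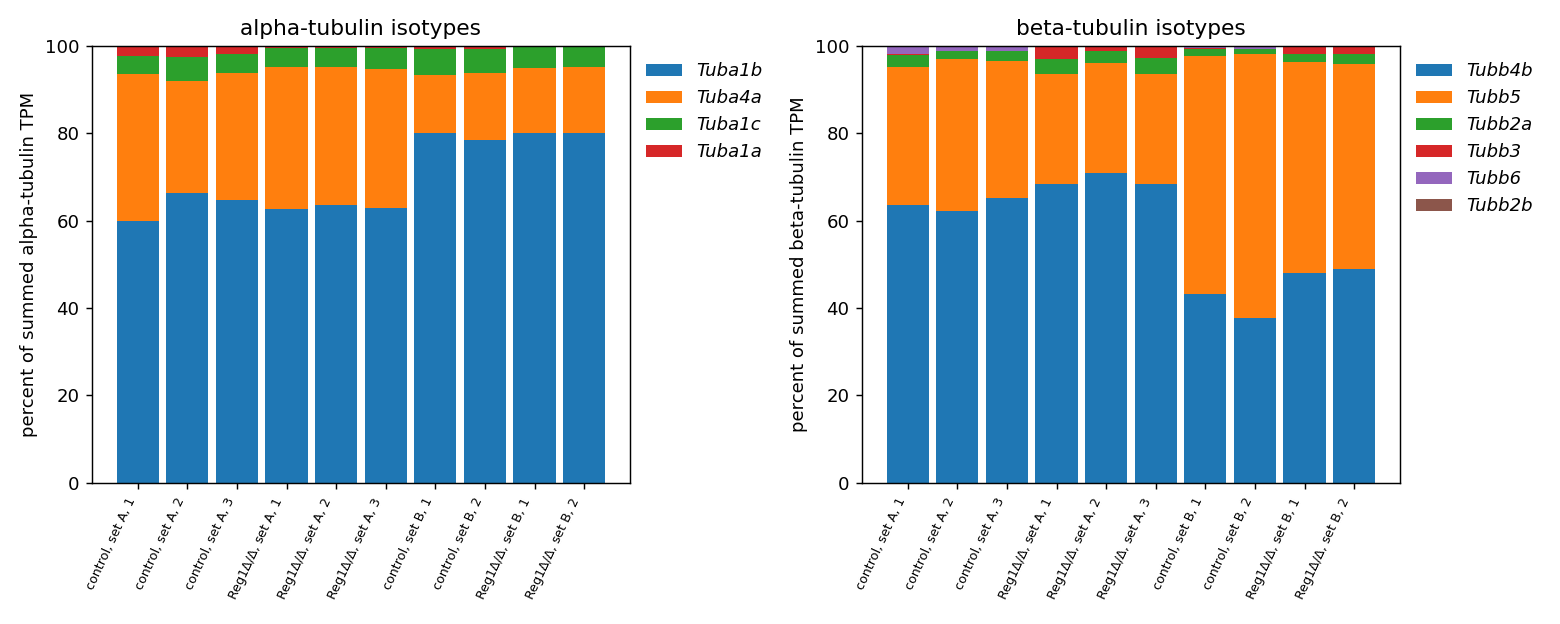
Share (percent, linear axis from 0 to 100) of each isotype in the summed TPM of the 4 alpha-tubulin genes (left) and the 6 beta-tubulin genes (right) in each library. Tuba1b makes up 59.8% to 80.1% of alpha tubulin and Tubb4b 37.8% to 70.8% of beta tubulin.

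Tubulin levels also differed between the library sets. Between the controls of the sets, 5 of the 9 tubulins were higher in set B (Tubb5, Tuba1b, Tuba1c, Tubb4b and Tubb2a) and 1 was lower (Tuba1a), beside 21.8% and 30.0% of all genes (limma, adjusted p under 0.05). The log2 difference was 2.38 for Tubb5 (SE 0.14, adjusted p = 2.28e-06), 1.10 for Tuba1b (SE 0.14, adjusted p = 0.000223) and −0.74 for Tuba1a (SE 0.20, adjusted p = 0.0148). When protein-coding transcripts alone were counted and rescaled, Tubb5 stayed 2.29 higher in set B (adjusted p = 1.54e-06), but Tuba1c, Tubb2a and Tubb4b were no longer called (adjusted p = 0.257, 0.991 and 0.279). The same change of scale moved Tuba1b to 0.36 (adjusted p = 0.04) and Tuba1a to −1.48 (adjusted p = 0.00024), and Tubb6 was then called lower in set B (−0.81, adjusted p = 0.0201). On that scale Tuba4a was lower in set B (log2 difference −1.54, adjusted p = 6.40e-05).

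On the scale of all transcripts, the annotated models behind these levels differed between the sets as well. The full-length coding transcript Tubb5-201 (2649 bases) held 58.3% to 62.5% of Tubb5 TPM in set A and 98.8% to 99.8% in set B. A Tubb5 transcript with a retained intron (Tubb5-204, 979 bases) held 32.9% to 39.1% in set A and at most 0.144% in set B. For Tuba4a, a 346-base fragment (Tuba4a-207) held 23.4% to 30.4% in set A and was listed at 0 in all 4 libraries of set B. A Tuba4a transcript with a retained intron (Tuba4a-205, 815 bases) held 5.94% to 8.93% in set A and 34.5% to 39.5% in set B. Tuba4a-202, the model with the full-length coding sequence, held 0.919% to 3.42% over all libraries, so Tuba4a TPM is mostly a value of fragments and intron-containing models. For Tubb3 in Reg1Δ/Δ, the full transcript Tubb3-201 had 13.4, 6.34 and 13.6 TPM in set A and 30.2 and 27.8 TPM in set B, and the shorter Tubb3-202 had 6.76, 2.03 and 7.05 TPM in set A and was listed at 0 in set B. The shares of the Tubb5 and Tuba4a models are ranges over both genotypes of a set, and whether library preparation has a part in them was not tested.

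**Figure D4:**
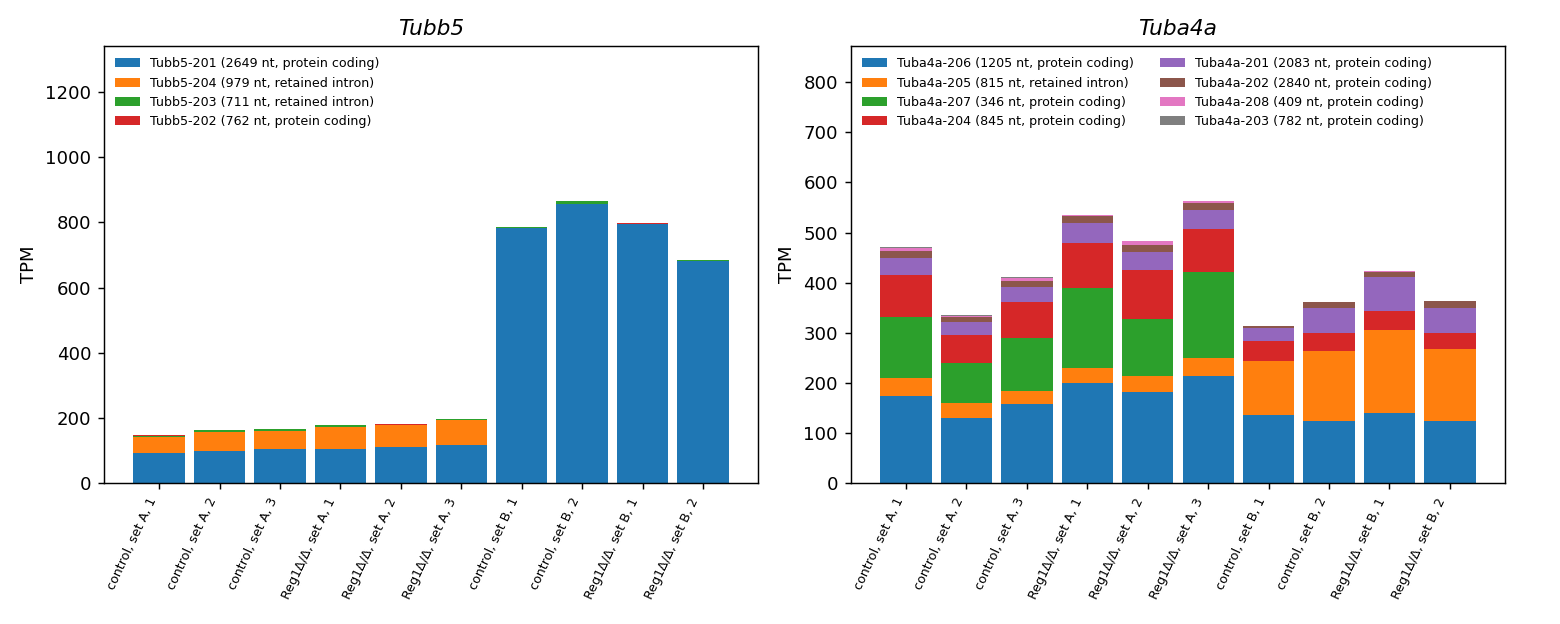
TPM (linear axes from 0) of each annotated transcript of Tubb5 (left) and Tuba4a (right), stacked for each library. The retained-intron model Tubb5-204 reaches 48.4 to 75.7 TPM in set A and at most 1.13 TPM in set B, and the 346-base Tuba4a-207 is listed at 0 in set B.

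The sequence before the start site is shown for Tubb3, Tubb2a and Tubb4b, the beta isotypes with the widest upward differences. The bases are from the RefSeq promoter table on GRCm38.p6, 5′ to 3′, and end before the GENCODE start of the gene, which cuts the Tubb3 window to 121 bases. Capitals mark the motifs CCAAT (bound by NF-Y), TATAAA (the core box near many start sites), GGGCGG (bound by Sp1), TTTGAA (the cell cycle homology region) and CACGTG (an E box) on either strand, none of which overlap here.
Tubb3, chr8:123411303-123411423, plus strand: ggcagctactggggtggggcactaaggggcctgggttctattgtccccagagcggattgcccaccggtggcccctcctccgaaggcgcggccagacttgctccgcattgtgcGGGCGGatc
Tubb2a, chr13:34078009-34078258, minus strand: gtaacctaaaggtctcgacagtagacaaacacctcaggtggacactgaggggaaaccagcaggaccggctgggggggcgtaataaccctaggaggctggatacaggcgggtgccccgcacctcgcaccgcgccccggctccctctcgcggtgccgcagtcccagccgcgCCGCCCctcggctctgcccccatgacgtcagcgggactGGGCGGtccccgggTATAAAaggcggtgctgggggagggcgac
Tubb4b, chr2:25224703-25224952, minus strand: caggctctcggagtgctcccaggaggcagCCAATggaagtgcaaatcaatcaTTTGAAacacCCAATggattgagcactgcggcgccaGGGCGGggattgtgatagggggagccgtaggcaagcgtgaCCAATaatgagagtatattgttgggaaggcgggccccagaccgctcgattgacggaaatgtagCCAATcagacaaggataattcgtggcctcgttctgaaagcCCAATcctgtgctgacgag
Over the 250 bases before the RefSeq start, GGGCGG was found in 6 of the 8 tubulins with an entry and in 32.7% of all 32851 promoters, and CCAAT in 5 of 8 and 33.8%. TATAAA was found only in Tubb2a among the 8 (12.4% of all promoters), TTTGAA only in Tubb4b (16.0%) and CACGTG only in Tubb5 (6.02%). Tubb4b held 5 copies of CCAAT. Tubb2b and Tubb6 have no entry. A match is a description of the letters and says nothing of binding.

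Other genes of tubulin and microtubules were read from 7 lists with 109 measured genes, of which 82 were tested. Of these, 24 were higher in Reg1Δ/Δ and 18 lower at an adjusted p under 0.05, beside 15.0% and 37.9% of all genes, with a median log2 difference of −0.06 beside −0.25. With quantile normalization 40 were higher and 10 lower, beside 30.0% and 20.5% of all genes, and with median-of-ratios scaling 34 and 9, beside 30.9% and 26.6%. On the TPM scale the higher calls lay mostly (15 of 24) with the folding machinery, which brings new tubulin chains to the assembly-ready dimer. With quantile normalization this machinery held 15 of the 40 higher calls, and with median-of-ratios scaling 16 of the 34. Of its 22 genes, 15 were higher and 2 lower (Tbcel and Pfdn5, the latter −0.55 and not called after median-of-ratios scaling, −0.20), beside 15.0% and 37.9% of all genes, and 15 and 16 were higher with quantile normalization and median-of-ratios scaling. All 8 subunits of the chaperonin CCT, which folds actin and tubulin, were called higher, by 0.25 (Cct4, not called after quantile normalization) to 0.63 (Cct6a) on the log2 scale. The prefoldin subunit Pfdn6, which hands chains to CCT, went from 121 ± 23.6 TPM in controls to 207 ± 9.27 TPM in Reg1Δ/Δ (SD, n = 5 each), a log2 difference of 0.79 (SE 0.12, adjusted p = 0.000426 by limma). Tbcd, a cofactor of dimer assembly, was higher by 0.63 (SE 0.20, adjusted p = 0.0223), but its difference was −0.01 when protein-coding transcripts alone were counted. Tbcel, which promotes tubulin breakdown, was lower (−0.79, SE 0.15, adjusted p = 0.00182), a call lost after quantile normalization (−0.12).

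Of the 3 genes of tubulin mRNA autoregulation, 2 were lower in Reg1Δ/Δ under each scaling. Of all genes, 37.9% were lower on the TPM scale, 20.5% with quantile normalization and 26.6% with median-of-ratios scaling. Ttc5, whose protein recognises the first residues of nascent tubulin and starts the decay of its mRNA when free dimers are in excess, had 118, 109 and 109 TPM in the set A controls and 56.3, 49.5 and 57.1 TPM in Reg1Δ/Δ. In set B it had 23.0 and 37.1 TPM in the controls and 14.1 and 19.7 TPM in Reg1Δ/Δ (log2 difference −0.93, SE 0.15, adjusted p = 0.000659 by limma). Its partner Scaper was lower too, at 4.94 ± 0.337 TPM in controls and 1.35 ± 0.251 TPM in Reg1Δ/Δ (SD, n = 5 each; log2 difference −1.34, adjusted p = 3.43e-06 by limma). The sizes moved with the scaling, to −0.45 for Scaper after quantile normalization and −0.58 for Ttc5 after median-of-ratios scaling. Cnot11, the subunit of the deadenylase complex that Scaper binds, had a log2 difference of 0.10 (adjusted p = 0.565 by limma) but was called higher with quantile normalization and with median-of-ratios scaling.

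Enzymes that modify tubulin were mixed, with 3 of 12 tested higher and 5 lower, beside 15.0% and 37.9% of all genes, so that the lower share was near that of all genes. Quantile normalization gave 6 higher and 3 lower, beside 30.0% and 20.5% of all genes, with Ttl and Ttll1 (−0.50 and −0.41 on the TPM scale) turning to 0.48 and 0.33. The enzyme that acetylates alpha-tubulin, Atat1, was lower (log2 difference −2.17, SE 0.23, adjusted p = 4.76e-05), and so was the deacetylase Hdac6 (−1.62, SE 0.12, adjusted p = 4.95e-06). Atat1 had 22.1 to 37.5 TPM in the set A controls and 2.84 to 5.35 TPM in Reg1Δ/Δ. Agbl5, which trims glutamates from the tail, was lower by label as well (−1.16, SE 0.10, adjusted p = 1.37e-05). After quantile normalization the differences of Atat1, Hdac6 and Agbl5 were −1.42, −0.91 and −0.61. The ligase-like Ttll12 (0.84), the vasohibin partner Svbp (0.73) and the deacetylase Sirt2 (0.50) were the 3 higher.

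Among the factors of the growing and stable microtubule, 1 of 15 tested was higher (Camsap2) and 6 lower, beside 15.0% and 37.9% of all genes, again a lower share near that of all genes. The counts were 2 and 3 with quantile normalization, beside 30.0% and 20.5% of all genes. With median-of-ratios scaling they were 3 and 2, beside 30.9% and 26.6%. Camsap3, among the 6, reached 1 TPM in the 5 controls only. Map7d1, a lattice-binding protein that recruits kinesin-1, was lower (−1.43, SE 0.17, adjusted p = 0.00011) and so was the plus-end protein Clip1 (−0.66, adjusted p = 0.00323 by limma). Map7, a relative of Map7d1, was lower over both sets (−0.68, adjusted p = 0.025 by limma), with −1.12 in set A and −0.015 in set B (interaction adjusted p = 0.169), where its groups overlapped. The calls of Map7 and Clip1 were lost after quantile normalization (−0.29 and −0.21) and after median-of-ratios scaling (−0.35 and −0.33). Of the 9 destabilisers tested (6 higher and 1 lower with quantile normalization, beside 30.0% and 20.5% of all genes), Kif2c was higher (0.46, adjusted p = 0.0105), and Stmn1, which sequesters dimers, was lower, beside 15.0% and 37.9% of all genes. Stmn1 had 1058 ± 227 TPM in controls and 778 ± 84.8 TPM in Reg1Δ/Δ (SD, n = 5 each; log2 difference −0.42, SE 0.10, adjusted p = 0.00558), and was not called after median-of-ratios scaling (−0.07). Of the 17 nucleation genes, 2 were higher (Mzt2 by 0.48 and Haus1 by 0.36) and 1 lower (Cdk5rap2, −0.33, which was 0.43 after quantile normalization), beside 15.0% and 37.9% of all genes. With quantile normalization and with median-of-ratios scaling 7 were higher and 0 lower, beside 30.0% and 30.9% of all genes higher. Gamma-tubulin Tubg1, the template for new microtubules, was higher (0.37, SE 0.10, adjusted p = 0.0119), and so was delta-tubulin Tubd1 (0.54), whereas Tuba8 was lower (−0.69, and 0.08 after quantile normalization). The platelet isotype Tubb1 averaged 1.71 ± 1.29 TPM in controls and 0.701 ± 0.202 TPM in Reg1Δ/Δ (SD, n = 5 each) and was not tested.

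**Figure D5:**
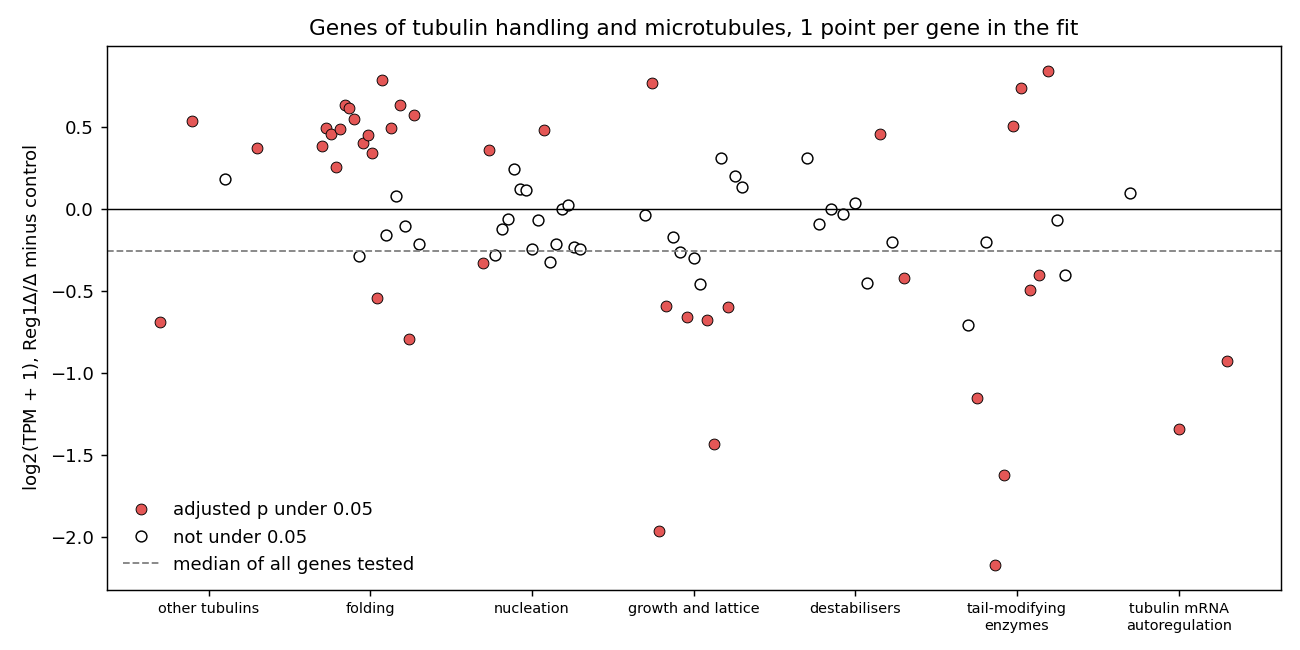
Difference in log2(TPM + 1) between Reg1Δ/Δ and controls (vertical axis) for 82 genes of 7 groups that act on tubulin, 1 point per gene, filled where the adjusted p was under 0.05. Folding genes lie mostly above 0, with 15 of 22 called higher, and the modifying enzymes Atat1 and Hdac6 lie below −1.6.

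Markers of dividing and of other blood cells also differed between the genotypes. Of 14 proliferation genes, 8 were higher and 0 lower in Reg1Δ/Δ, beside 15.0% and 37.9% of all genes (Pcna, the most abundant, had 363 ± 105 TPM and 365 ± 58.3 TPM, SD, n = 5 each), with summed levels of 1733 to 2005 TPM in the set A controls, 2259 to 2717 TPM in the set A libraries labelled Reg1Δ/Δ, 2352 to 2463 TPM in the set B controls and 2542 to 2731 TPM in Reg1Δ/Δ. With quantile normalization 3 of the 14 were higher, below the 30.0% of all genes, and with median-of-ratios scaling 12, beside 30.9%. Among those not called on the TPM scale, Mki67 and Top2a had log2 differences of −0.39 and −0.14, and Mki67 averaged 13.4 TPM in the set A controls and 8.26 TPM in Reg1Δ/Δ, without overlap (−0.60 within set A, adjusted p = 0.0475 by limma). The summed megakaryocyte markers, whose list includes Tubb1, were 245 to 466 TPM in the set A controls and 82.9 to 101 TPM in Reg1Δ/Δ, and in set B 107 and 130 TPM against 23.1 and 31.8 TPM. The summed neutrophil markers were 3034 to 5317 TPM in the set A controls and 311 to 968 TPM in Reg1Δ/Δ, and the summed B lineage markers 403 to 1485 TPM and 12.3 to 60.0 TPM. In set B the neutrophil sum was 11147 and 12903 TPM in the controls and 812 and 877 TPM in Reg1Δ/Δ, and the B lineage sum 1372 and 1452 TPM against 5.40 and 140 TPM. The part of such cells in the tubulin levels was not tested.

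Across the 10 libraries, with log2(TPM + 1) centred within each set, the protein-coding genes most like Tubb3 were Wars (Pearson's r = 0.995), Gbp6 (0.994), Gbp3 (0.988), Apol11b (0.987) and Irgm1 (0.986). All 10 points carry the difference between genotypes, so these values describe a shared pattern over genotypes and are given without a test. Mean levels in controls and Reg1Δ/Δ were 46.2 and 108 TPM for Wars, 21.2 and 121 TPM for Gbp3 and 59.9 and 247 TPM for Irgm1. Among the tubulins the same measure was 0.89 for Tubb3 with Tubb2a and −0.90 for Tubb3 with Tubb6, and Tuba1c and Tubb5, the isotypes that overlapped between genotypes, had 0.78.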

How the data were processed

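RNA of sorted CD34- HSCs was measured in 5 control and 5 Reg1Δ/Δ libraries. The authors aligned the reads with STAR to GRCm38 and quantified them with Salmon 0.9.1 on GENCODE M17. The deposited values are log2(TPM + 1), one for each transcript. They were turned back to TPM and added up per gene. limma 3.58.1 (R 4.3.3) was run on log2(TPM + 1) of the 12874 genes with at least 1 TPM in at least 5 libraries, with the library set as a covariate and Benjamini-Hochberg adjustment over all of them (threshold 0.05). The pseudocount of 1 understates differences of low genes. The fit was run on simulated data with 200 changed genes, split evenly between log2 differences of 1 and 2. It called 80 and 93 of these, with 5 false calls. The changed genes averaged at least 5 TPM and were far fewer than the calls in these data. The simulation thus does not cover lower genes or so wide a change.

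The members and gene lists were chosen with earlier results of these data known. Named genes were, per list, up to 3 called genes of at least 10 TPM with the largest differences, Ttc5, Stmn1, Tubb1, Tubg1, the most abundant gene of each marker list and the 5 genes most like Tubb3. Scaper, Cnot11, Camsap3, Ttl, Ttll1, Mki67, Top2a, Pfdn5, Cdk5rap2, Camsap2, Tuba8, Ttll12, Svbp, Sirt2, Snap25, Cd34, Flt3, Cct4 and Cct6a were named after their values were seen.

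Library sets were taken from the form of the sample names. The header of the second Reg1Δ/Δ library of set B repeats the name of the first, and its values differ, so it was kept. The largest correlation between libraries was 0.975. The bone marrow came from individual mice, and p-values measure the spread between these libraries. Whether replicate numbers pair libraries was examined by correlating deviations from group means (0.03, 0.18 and 0.07 in set A, −0.05 and −0.05 in set B). The set B values are equal by construction, since deviations of 2 libraries mirror each other. With so few libraries these values cannot settle the pairing. Alternatives were another filter, pseudocount, scaling, covariate, trend, block, each set alone and each library left out. Sequences are from GENCODE M21 and RefSeq on GRCm38, the authors' build, read with Python 3.11.15 and Biopython; motifs and 31-base words were searched on both strands. Some coding ends are not reported here.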

Additional observations from a re-analysis of the deposited data

How the results depend on the processing

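TPM is relative and holds no depth, the groups hold 3 and 2 libraries, and near-identical tubulins share reads, which limits small differences between isotypes. Without the set covariate 716 genes were higher and 3052 lower, 3 and 8 of the microtubule genes. In set B alone the counts were 452 and 1581 genes and 4 and 8 microtubule genes, and Tuba1c (−0.15) and Tubb5 (−0.16) changed sign. Quantile normalization gave 3861 higher and 2636 lower genes, 40 and 10 of the microtubule genes. Median-of-ratios scaling gave 3973 higher and 3425 lower genes, 34 and 9 of the microtubule genes, and 7 and 2 of the tubulins (4 and 2 on the TPM scale). With protein-coding transcripts alone, 17 genes differed in effect between the sets. The cause of these changes was not tested. The replicate block uses numbers whose pairing of libraries is not known. With it, 1703 genes were higher and 4545 lower, 21 and 17 of the microtubule genes, and 3 and 2 of the tubulins (4 and 2 without it). Leaving out each library in turn gave 1548 to 1961 higher and 4409 to 5242 lower genes, 18 to 26 higher and 16 to 22 lower microtubule genes, 3 or 4 higher and 2 lower tubulins, and log2 differences of 3.31 to 3.66 for Tubb3, −2.18 to −1.96 for Tubb6 and −1.67 to −1.40 for Tuba1a. With a pseudocount of 0.1 the difference was 4.73 for Tubb3 and −3.18 for Tubb6. Quantile normalization gave 3.90 for Tubb3, −1.31 for Tubb6 and −1.04 for Tuba1a.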
